A study of Mus musculus with 2 samples.

Results

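The 10 genes described here encode folding factors of the endoplasmic reticulum (ER) and regulators of the unfolded protein response: Hspa5, Hsp90b1, Calr, Pdia4, Pdia6, Dnajb9, Sdf2l1, Creld2, Herpud1 and Xbp1. They were picked by symbol, by a rule that names no measured value although earlier results of these data were known, and are 10 of the 22587 gene symbols counted in both libraries. Each was matched to 1 gene identifier, and all 10 passed the minimum of 50 UMIs in the main cell class. Their levels are given by genotype, by marker-defined cell class and by the share of mitochondrially encoded mRNAs, next to 37 genes of the ATF4 arm of the stress response.

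The study deleted Opa1, which encodes the GTPase that fuses the mitochondrial inner membrane, in adult neural stem cells (NSCs) and asked how these cells and their progeny respond. Both groups carried Nestin-CreERT2 and the ROSA26YFP reporter and received tamoxifen at 8 weeks of age. In the conditional knockout (Opa1 cKO) the Opa1-Flox alleles were also present, while the control (CT) was Opa1-Flox negative, although the strain field of both libraries reads alike. At 12 weeks, 4 weeks after tamoxifen, living YFP+ cells were sorted from the hippocampus, and those of 3 mice per genotype went into a single library of a droplet 3′ assay. Nestin-CreERT2 recombines where nestin is expressed, which includes astrocyte-like stem cells, and recombination of the reporter does not show that both Opa1 alleles were deleted in a given cell. With 1 library per genotype a genotype cannot be told apart from its library, so no test between genotypes was possible and no p-value is given.

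The ER lumen folds secreted and membrane proteins, and 3 sensors in its membrane watch the load of unfolded protein. PERK phosphorylates eIF2α, which lowers translation while it favors that of Atf4. IRE1 splices Xbp1 mRNA into the form that encodes an active transcription factor, and ATF6 is released by cleavage in the Golgi apparatus. XBP1 and ATF6 then raise chaperones and genes of ER-associated degradation. ATF4 can also be raised without ER stress, because other kinases phosphorylate the same factor when mitochondria fail, amino acids are short or heme is lacking. The members are therefore the genes to read beside ATF4 targets when the question is whether the ER arms move with them. In embryonic cortex without Opa1, the study reports activated PERK and more ATF4 protein, neither of which RNA counts can show. Counts of 3′ ends show how much Xbp1 mRNA was present and cannot show whether it was spliced.

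The binding motif shared by many of these genes, the ER stress response element (ERSE), was searched in RefSeq promoters of GRCm38.p6, from 250 bases before to 50 bases after each gene's start, on both strands. It consists of CCAAT and CCACG with 9 bases of any kind between them. A related element, ERSE-II, consists of ATTGG and CCACG with 1 base between them. The C/EBP-ATF response element (CARE), through which ATF4 acts, was searched as TGATGNAAN. Matches to ERSE were present in 5 of the 10 members and in 0.119% of 32851 promoters, and Herpud1 had the match to ERSE-II that 0.0365% of promoters hold, as well as one to CARE, which 3.95% hold. No match to these letters or to the UPRE (TGACGTGG, 0.676% of promoters) was found in the windows of Pdia4, Dnajb9, Sdf2l1 and Xbp1. The stretches around the matches are shown 5′ to 3′ on the strand of the gene, with the matched letters in capitals. In the first 5 lines the capitals mark ERSE, which Hsp90b1 holds in both orientations; in the last line the first run in capitals is CARE and the second ERSE-II.
Hspa5: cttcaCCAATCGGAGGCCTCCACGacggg
Hsp90b1: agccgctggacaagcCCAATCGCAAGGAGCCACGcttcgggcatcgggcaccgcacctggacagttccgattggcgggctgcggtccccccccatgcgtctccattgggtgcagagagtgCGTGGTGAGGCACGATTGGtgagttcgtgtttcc
Calr: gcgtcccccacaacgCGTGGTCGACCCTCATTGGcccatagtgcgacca
Pdia6: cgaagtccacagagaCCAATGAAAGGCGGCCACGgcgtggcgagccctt
Creld2: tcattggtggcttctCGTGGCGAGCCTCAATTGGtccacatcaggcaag
Herpud1: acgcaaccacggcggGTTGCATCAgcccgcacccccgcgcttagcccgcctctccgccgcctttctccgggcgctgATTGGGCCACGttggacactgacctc

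These stretches lie on GRCm38.p6 at chr2:34772020-34772048 (plus strand, Hspa5), chr10:86705518-86705671 (minus strand, Hsp90b1), chr8:84847060-84847108 (minus strand, Calr), chr12:17266476-17266524 (plus strand, Pdia6), chr15:88819505-88819553 (plus strand, Creld2) and chr8:94386301-94386402 (plus strand, Herpud1). All lie before the RefSeq start of their gene. The GENCODE M21 annotation starts 1 transcript of Hspa5 further upstream, so that the stretch shown for Hspa5 is inside the first, noncoding exon of that transcript; the other 5 stretches overlap no exon of their gene. A match of letters describes the sequence only and does not show that a factor was bound.

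In CT 10799936 UMIs were deposited over 4634 barcodes, and in Opa1 cKO 18662032 UMIs over 6475. Filters on genes, mitochondrial share and YFP transcripts kept 1790 CT and 3764 Opa1 cKO cells with medians of 2555 and 3008 UMIs. Without the YFP filter 4186 CT and 6121 Opa1 cKO cells passed, so that filter removed a larger share of the CT cells. The study, which also required detectable YFP, reports more cells of each genotype than were kept here. The libraries shared 36 barcode sequences, 9 of them among kept cells. Clusters were named from marker genes, and the class used most here, NSC/astrocyte-like cells, joined cluster 0 and cluster 1. Of its 1378 CT cells, 1374 were in cluster 0, and of its 2583 Opa1 cKO cells, 1791 were in cluster 1, whose leading genes included the ATF4 targets Gdf15, Slc7a11, Slc3a2 and Chac1. The summed NSC markers took 60352 of every 1000000 UMIs (CPM) of the class in CT cells and 55826 CPM in Opa1 cKO cells, and astrocyte markers such as Aqp4 and Slc1a2 were at 10486 and 7927 CPM, so resting stem cells and astrocytes are not separated in it. Opa1 itself stood at 18.5 CPM in the CT cells of the class (70 UMIs) and at 8.13 CPM in the Opa1 cKO cells (69 UMIs); reads of this assay come from the 3′ end and check a deletion only where it lies there.

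In NSC/astrocyte-like cells the members together took nearly the same share of mRNA in both libraries, while the ATF4 arm did not. The members summed to 1451 CPM in CT cells and to 1565 CPM in Opa1 cKO cells, a log2 ratio of 0.11 (95% counting interval 0.06 to 0.15). The ATF4 arm summed to 3222 and 9765 CPM, a log2 ratio of 1.60 (1.57 to 1.63). When mitochondrially encoded mRNAs were left out of the denominator, the members' log2 ratio was 0.05 (0.01 to 0.10). One of the members, Herpud1, was at least 1.5-fold higher, that is 1 of 10 against 13% of the 10099 genes tested, and 0 of 10 were at least 1.5-fold lower, against 11.4%. The members' median log2 ratio was 0.11 and that of all genes tested 0.04. With each cell of at least 1500 UMIs thinned to that number, CT cells held 2.24 member UMIs on average and Opa1 cKO cells 2.45. The median was 2 in both. This left out 94 CT and 201 Opa1 cKO cells with fewer UMIs.

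The share of UMIs from the 13 mitochondrially encoded mRNAs divided the Opa1 cKO cells of this class. Under 1% of UMIs were mitochondrial in 1574 of 2583 Opa1 cKO cells and in 3 of 1378 CT cells, and 3% or more in 768 and 1268 cells. Opa1 was at 6.68 CPM (35 UMIs) in the Opa1 cKO cells under 1% and 11.5 CPM (29 UMIs) in those at 3% or more. In the CT cells at 3% or more it was at 18.2 CPM (64 UMIs). Whether the Opa1 cKO cells at 3% or more had lost Opa1 was not tested. The ATF4 arm followed the mitochondrial share. It was at 12664 CPM in the Opa1 cKO cells under 1% and at 3774 CPM in those at 3% or more, against 3162 CPM in the CT cells at 3% or more. The members' sum did not follow it, at 1562 CPM in the Opa1 cKO cells under 1%, 1606 CPM in those from 1 to under 3% and 1560 CPM in those at 3% or more. Behind this flat sum single members differed in opposite directions. Since the 3 CT cells under 1% held only 2 member UMIs, the Opa1 cKO cells under 1% were compared with all CT cells of the class and with the Opa1 cKO cells at 3% or more; these comparisons share cells with each other and with that of the whole class.

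**Figure D1:**
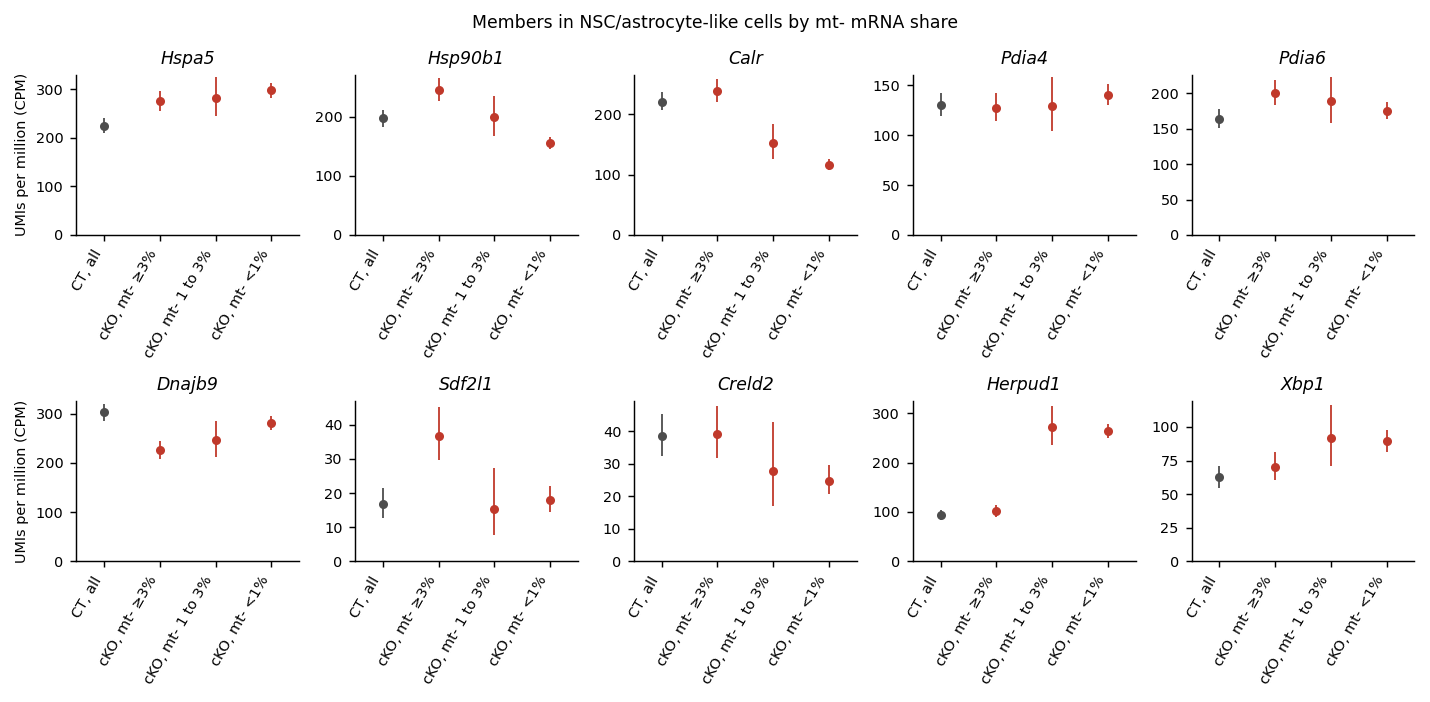
Level of each member (CPM, axis from 0) in NSC/astrocyte-like cells: all CT cells in grey and the 3 groups of Opa1 cKO cells by share of mitochondrially encoded mRNA in red. Points are pooled values of 1 library each and bars 95% Poisson intervals that cover counting error only. Herpud1 stands at 264 CPM under 1% and 101 CPM at 3% or more, whereas Calr stands at 116 and 238 CPM.

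The chaperones of the ER lumen went apart. Hspa5 encodes BiP, the Hsp70-type chaperone that also holds the 3 sensors inactive. It was at 225 CPM in CT cells and, in Opa1 cKO cells, at 297 CPM under 1% mitochondrial share, 283 CPM from 1 to under 3% and 275 CPM at 3% or more. All 3 Opa1 cKO groups lay above CT, and the difference between the lowest and the highest mitochondrial share was small (log2 ratio 0.11, -0.02 to 0.24). Hsp90b1 encodes GRP94, the Hsp90-type chaperone of the lumen. It was at 197 CPM in CT cells, and the Opa1 cKO cells under 1% were lower, at 155 CPM (log2 ratio -0.35, -0.49 to -0.20), while those at 3% or more were higher, at 246 CPM, than the CT cells at 3% or more, at 199 CPM (log2 ratio 0.31, 0.15 to 0.46). Calr encodes calreticulin, the calcium-binding lectin that folds glycoproteins. It was at 221 CPM in CT cells and at 116 CPM in the Opa1 cKO cells under 1% (log2 ratio -0.93, -1.08 to -0.78), with 152 CPM in the middle group and 238 CPM at 3% or more. Calr and Hsp90b1 were thus lower where the mitochondrial share was low, and Hspa5 was not.

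The protein disulfide isomerases, which form and shuffle disulfide bonds in the lumen, differed less. Pdia4 was at 130 CPM in CT cells and at 140, 129 and 127 CPM in the Opa1 cKO cells under 1%, from 1 to under 3% and at 3% or more, and every interval of these ratios to CT held 0. Pdia6 was at 164 CPM in CT cells and at 175, 188 and 201 CPM in the same 3 groups. Its log2 ratio was 0.28 (0.11 to 0.46) between the Opa1 cKO and CT cells at 3% or more and 0.10 (-0.05 to 0.25) between the Opa1 cKO cells under 1% and all CT cells.

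Among cochaperones and smaller folding factors, Dnajb9 encodes ERdj4, a J-domain partner of BiP, and differed most where the mitochondrial share was high. It was at 303 CPM in CT cells, and at 282 CPM in the Opa1 cKO cells under 1% and 226 CPM in those at 3% or more, the latter with a log2 ratio of -0.39 (-0.54 to -0.25) over the CT cells at 3% or more. Sdf2l1, a component of the ER chaperone complex, had few UMIs and differed the other way, at 16.7 CPM in CT cells, 17.9 CPM in the Opa1 cKO cells under 1% and 36.8 CPM in those at 3% or more. From 59 CT and 93 Opa1 cKO UMIs, its log2 ratio between the cells of both libraries at 3% or more was 1.14 (0.65 to 1.63). Creld2, a secreted disulfide isomerase that rises with ER stress, was at 38.4 CPM in CT cells, 24.8 CPM in the Opa1 cKO cells under 1% and 39.2 CPM in those at 3% or more. The ratio of the cells under 1% to all CT cells was -0.63 (-0.98 to -0.28) on the log2 scale.

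The member of ER-associated degradation differed most. Herpud1 encodes HERP, a membrane protein that recruits the ubiquitin ligase complex by which misfolded proteins leave the ER, and it responds to ATF4 as well as to the ER arms. It was at 93.7 CPM in CT cells, and at 264 CPM under 1%, 273 CPM from 1 to under 3% and 101 CPM at 3% or more in Opa1 cKO cells. The groups under 3% thus lay far above CT, and the group at 3% or more did not (log2 ratio 0.13, -0.11 to 0.37, against the CT cells at 3% or more). For the cells under 1% the log2 ratio was 1.495 (1.33 to 1.67) over all CT cells and 1.38 (1.19 to 1.58) over the Opa1 cKO cells at 3% or more, and under the alternatives tried these ratios ran from 1.39 to 1.62 and from 1.13 to 1.46. Xbp1, the substrate of IRE1 and itself a target of ATF6, was at 62.5 CPM in CT cells and at 89.5, 91.5 and 70.1 CPM in the 3 Opa1 cKO groups in the same order. Its log2 ratio was 0.52 (0.29 to 0.75) between the cells under 1% and all CT cells, below the 1.5-fold mark.

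Counted over all members, 1 of 10 (Herpud1) was at least 1.5-fold higher in the Opa1 cKO cells under 1% than in CT cells, where 19.9% of 9604 genes were, and 2 of 10 (Calr and Creld2) at least 1.5-fold lower, where 13.6% were. Between the cells at 3% or more, Sdf2l1 alone was at least 1.5-fold higher, against 2.20% of 8675 genes, and 0 of 10 were at least 1.5-fold lower, against 14.2%. Within Opa1 cKO cells, those under 1% had Herpud1 at least 1.5-fold higher than those at 3% or more, against 22.1% of 9167 genes, and Hsp90b1, Calr, Sdf2l1 and Creld2 at least 1.5-fold lower, against 4.37%. The median log2 ratio of all genes was 0.10 in the first of these comparisons, -0.11 in the second and 0.25 in the third. Relative to those medians the members' sum was at 0.01 (-0.04 to 0.05), 0.22 (0.16 to 0.28) and -0.25 (-0.31 to -0.19). On that scale Hspa5 was at -0.14 within Opa1 cKO cells, where it is at 0.11 without centring, and Pdia4 was at -0.11 in place of 0.14, so the direction of both in that comparison depends on the scale. Cells under 1% also had more genes per cell, with a median of 1590.5 against 1423 at 3% or more, and fewer NSC marker UMIs, 50737 against 67508 CPM; the part of these differences in the result was not tested.

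**Figure D2:**
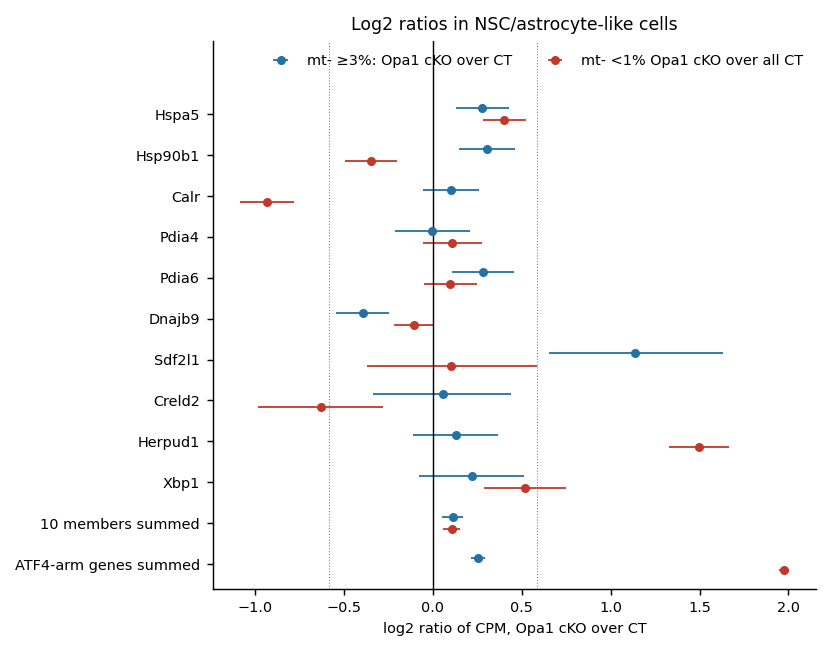
Log2 ratio of CPM, Opa1 cKO over CT, for each member, the members summed and the ATF4 arm summed: cells of both libraries with a mitochondrial share of 3% or more in blue, and Opa1 cKO cells under 1% over all CT cells in red. Bars are 95% counting intervals and dotted lines mark 1.5-fold. The members' sums lie at 0.11 in both, the ATF4 arm at 0.25 and 1.97.

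Ordering the Opa1 cKO NSC/astrocyte-like cells by the share of their UMIs from the ATF4 arm gave a graded view of the same members, none of which was used for the order. From the lowest to the highest of 4 groups of 645 or 646 cells the ATF4 arm, which sets the order, went from 3031 to 15763 CPM, and the members' sum was 1544, 1599, 1540 and 1580 CPM. Herpud1 was at 90.9, 214, 273 and 283 CPM, so most of its range lay between the first and the second group. Calr was at 244, 154, 115 and 112 CPM, the reverse order, and Hsp90b1 was at 246, 202, 159 and 138 CPM. Pdia6 was lower in the same direction by less, at 200.2, 188, 182 and 165.5 CPM (highest over lowest group -0.27, -0.49 to -0.06). Hspa5 stayed between 274 and 296 CPM and Pdia4 between 130 and 143 CPM. Dnajb9 was at 222, 271, 249.7 and 309 CPM and Xbp1 at 63.7, 89.9, 85.4 and 96.6 CPM. The scarcer folding factors had the order of Calr, with Sdf2l1 at 36.5, 22.1, 19.8 and 15.1 CPM and Creld2 at 36.5, 33.9, 25.4 and 21.6 CPM. Between the highest and the lowest group, 2 of 10 members were at least 1.5-fold higher, against 27.3% of 7504 genes, and 4 of 10 at least 1.5-fold lower, against 4.34%. The median mitochondrial share went from 5.45% to 0.386% over the same groups, so the order by ATF4 arm and the mitochondrial share are not independent views.

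**Figure D3:**
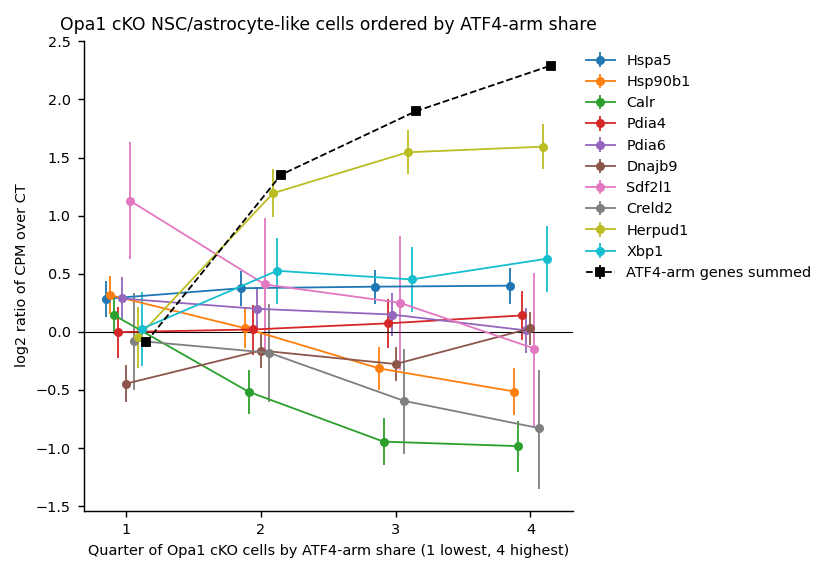
Log2 ratio of CPM over all CT NSC/astrocyte-like cells for 4 groups of 645 or 646 Opa1 cKO cells ordered by ATF4-arm share, with 95% counting intervals; members as colored lines and the summed ATF4 arm, which set the order, as a dashed black line. Herpud1 goes from -0.04 to 1.59 and Calr from 0.14 to -0.98.

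Genes with related roles in the ER, taken from lists made for this comparison, likewise held genes on both sides of CT. In the Opa1 cKO cells under 1% over all CT cells, 2 of 16 tested folding factors were at least 1.5-fold higher and 2 at least 1.5-fold lower, with a median log2 ratio of -0.09 beside 0.10 for all genes. The counts of this and the following lists are to be read against the 19.9% of all genes that were higher and the 13.6% that were lower in this comparison. Canx, which encodes calnexin, the membrane-bound relative of calreticulin, was at 249 CPM in CT cells and 132 CPM in these Opa1 cKO cells (log2 ratio -0.92, -1.06 to -0.77). P4hb, the classical protein disulfide isomerase, was at 52.1 and 33.8 CPM. Mesd, a chaperone of LDL receptor family proteins, was at 33.6 and 75.2 CPM (1.16, 0.87 to 1.46), and Dnajc3, a BiP cochaperone that also inhibits PERK, at 104 and 158 CPM (0.60, 0.43 to 0.78). Hspa13, an Hsp70 relative, followed at 0.29 (-0.06 to 0.65). Among genes of ER-associated degradation, 4 of 20 were at least 1.5-fold higher, close to the share of all genes, and 1 lower, with a median of 0.21. The higher ones included Ufd1, a cofactor of the segregase VCP, at 43.7 and 89.7 CPM (1.04, 0.78 to 1.30), and the ubiquitin-conjugating enzymes Ube2g2 and Ube2j1, with log2 ratios of 0.64 (0.22 to 1.07) and 0.62 (0.23 to 1.02). The fourth was Herpud2, a paralog of Herpud1, at 0.62 (0.40 to 0.83), named after its value was seen, and Nploc4, the partner of Ufd1, was the lower one at -1.01 (-1.70 to -0.34) from 48 CT and 33 Opa1 cKO UMIs. Edem3, which trims mannose from misfolded glycoproteins, was at -0.32 (-0.88 to 0.25).

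Of 27 tested genes of translocation, glycosylation and ER export, 1 was at least 1.5-fold higher and 2 lower, both shares below those of all genes, with a median of 0.02. Sec23b, of the coat of vesicles that leave the ER, was higher at 0.87 (0.54 to 1.21). Rpn2, of the oligosaccharyltransferase, and Sec11c, of the signal peptidase, were at 0.46 (0.34 to 0.58) and 0.45 (0.31 to 0.59). Kdelr2, a receptor that returns escaped chaperones to the ER, was at 156 CPM in CT cells and 75.0 CPM in the Opa1 cKO cells under 1% (-1.05, -1.24 to -0.87), and Sec63, a cofactor of the translocation channel, was lower at -0.66 (-1.05 to -0.28). Of 8 tested sensors and processing factors 1 was at least 1.5-fold higher and 0 lower. That gene, Creb3l1, encodes a membrane-bound transcription factor cleaved like ATF6 and was at 11.6 and 37.8 CPM (1.70, 1.22 to 2.20). Atf6 itself had 23 CT and 44 Opa1 cKO UMIs and a log2 ratio of 0.46 (-0.30 to 1.26), and Creb3l2, a relative of Creb3l1, was at 0.56 (-0.18 to 1.33). The proteases that cleave ATF6, encoded by Mbtps1 and Mbtps2, were at -0.53 (-0.95 to -0.11) and -0.36 (-0.83 to 0.12). Reported substrates of IRE1-dependent decay, whose mRNAs fall when IRE1 is active, had 2 of 5 tested genes at least 1.5-fold lower. Scara3 was at 162 and 63.1 CPM (-1.36, -1.56 to -1.16) and Pdgfrb, also a marker of mural cells, at 82.1 and 51.1 CPM, while Bloc1s1, the most widely used of these substrates, was at 145 and 114 CPM (-0.34, -0.51 to -0.17). The other 2 were higher, Sparc at 325 and 405 CPM (0.32, 0.22 to 0.42) and Hgsnat at 27.5 and 36.4 CPM (0.40, 0.05 to 0.76). Their median log2 ratio was -0.34, beside 0.10 for all genes. Between the high mitochondrial groups of both libraries it was -0.44, beside -0.11, with 0 genes at least 1.5-fold lower. Within Opa1 cKO, low over high group, it was 0.11, beside 0.25, with 1 gene higher and 1 lower. A lower median against CT was thus not particular to the cells under 1%, and IRE1 activity was not tested.

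The ATF4 arm formed the contrast to these lists. In the same comparison 34 of 36 tested genes were at least 1.5-fold higher and 0 lower, with a median log2 ratio of 2.22. The largest differences were those of Trib3, a pseudokinase that feeds back on ATF4, with 0 CT UMIs and 642 in the Opa1 cKO cells under 1%, which is at least 154-fold higher when CT is set at 3 UMIs over all its cells. Gdf15, a secreted stress factor, and Asns, asparagine synthetase, had 1 CT UMI each and 771 and 564 UMIs, for log2 ratios of 9.12 (6.64 to 14.42) and 8.67 (6.18 to 13.97). Gpt2 and Ddit4 had the smallest ratios, 0.18 (-0.09 to 0.45) and 0.31 (0.18 to 0.45). Atf4 mRNA was higher by 1.85 (1.67 to 2.04). Heat shock genes of the cytosol were at least 1.5-fold higher in 1 of 12 cases, Hspa8, at 702 and 1259 CPM (0.84, 0.78 to 0.91), and lower in 0 cases. Dnaja1 and Hspa4 were at 0.53 (0.39 to 0.67) and 0.47 (0.14 to 0.82), Bag3 and Hsph1 at -0.54 (-0.999 to -0.09) and -0.45 (-0.99 to 0.09). Of immediate early genes, which rise during dissociation, 0 of 8 were at least 1.5-fold higher, and 1, Btg2, was at least 1.5-fold lower (-0.62, -0.96 to -0.29). Of that list Dusp1 was at -0.56 (-0.76 to -0.35), Jun at 0.23 (0.07 to 0.39), Zfp36 at 0.18 (-0.65 to 1.04) and Egr1 at 0.17 (-0.50 to 0.86). The immediate early genes of NSC/astrocyte-like cells summed to 548 CPM in CT cells and to 545 CPM in Opa1 cKO cells.

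Across classes some members were highest in the same class in both libraries, and others were not. How often this holds, or intervals lie apart, over all genes was not counted, so neither is read as particular to the members. Dnajb9 was highest in NSC/astrocyte-like cells among the 6 classes with at least 39 cells in each library, at 303 CPM in CT cells and 262 CPM in Opa1 cKO cells, against 82.2 and 77.9 CPM in ependymal-like cells. Pdia6 was highest in progenitor and neuron-like cells, at 382 and 399 CPM, against 140 to 231 CPM in the other 5 classes. Pdia4 and Creld2 were highest in ependymal-like cells, which carry motile cilia, at 393 and 326 CPM and at 137 and 166 CPM. Xbp1 was highest in mural-like cells, at 178 and 288 CPM, and Hsp90b1 in ependymal-like cells, at 356 and 411 CPM. The highest class differed between CT and Opa1 cKO for Hspa5 (ependymal-like, 466 CPM, and mural-like, 757 CPM), Calr (mural-like, 300.0 CPM, and ependymal-like, 264 CPM), Sdf2l1 (mural-like, 67.3 CPM, and oligodendrocyte-like, 80.3 CPM) and Herpud1 (endothelial-like, 142 CPM, and NSC/astrocyte-like, 217 CPM). The intervals of the highest class lay apart from those of the other 5 classes in both libraries for Pdia6, Pdia4 and Dnajb9. In CT those of Creld2 in ependymal-like and mural-like cells, 76.7 to 226 and 29.4 to 113 CPM, overlapped, as did those of Xbp1 in mural-like and endothelial-like cells, 119 to 255 and 97.5 to 199 CPM. For each member whose highest class differed, the CT interval of that class also overlapped that of another class. For Hspa5 these were 347 to 612 CPM in ependymal-like and 280 to 473 CPM in mural-like cells. For Sdf2l1 they were 33.6 to 120 CPM in mural-like and 34.4 to 94.5 CPM in oligodendrocyte-like cells.

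**Figure D4:**
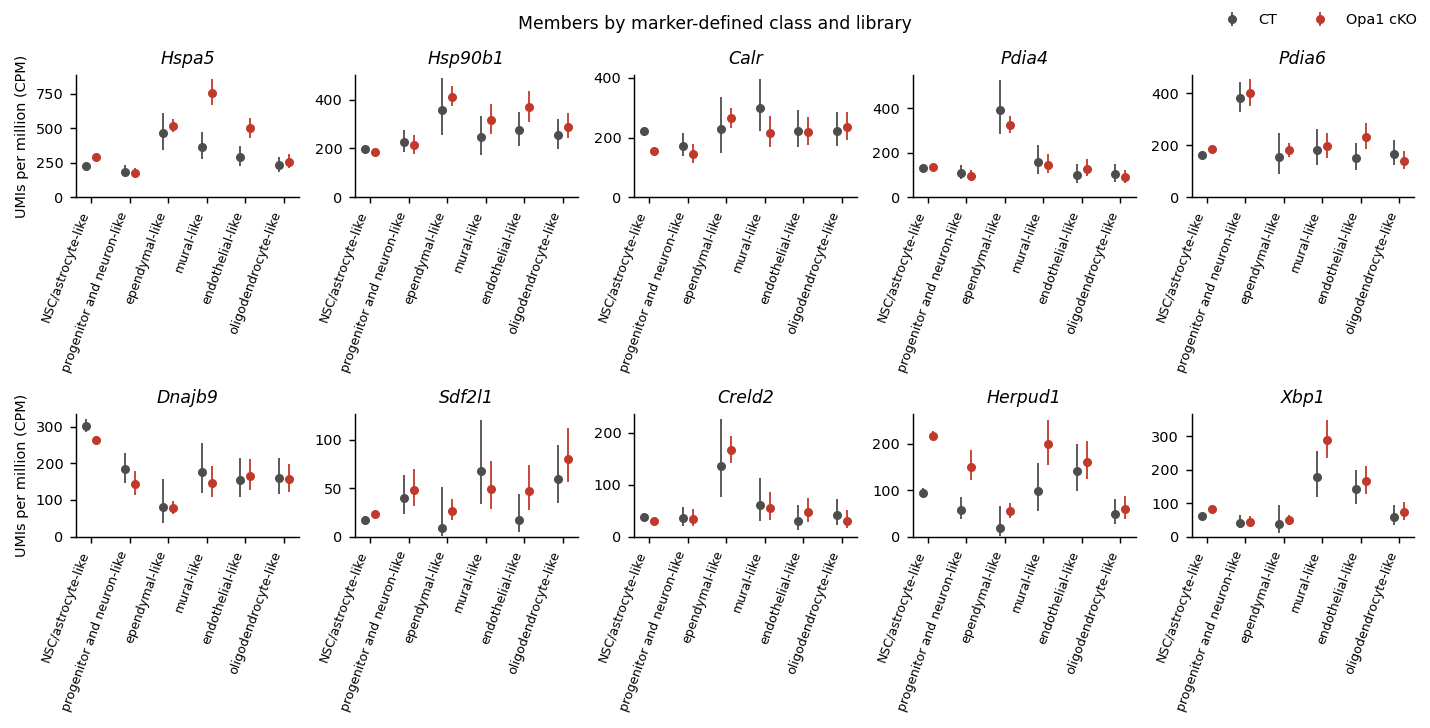
Level of each member (CPM, axis from 0) in 6 marker-defined classes, CT in grey and Opa1 cKO in red, with 95% Poisson intervals that cover counting error only. Pdia6 stands out in progenitor and neuron-like cells (382 and 399 CPM) and Pdia4 in ependymal-like cells (393 and 326 CPM) in both libraries.

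Between genotypes the classes differed in which members were higher. Progenitor and neuron-like cells, 139 CT and 169 Opa1 cKO cells, had members' sums of 1440 and 1448 CPM, and Herpud1 was the member at least 1.5-fold higher, at 57.8 and 151 CPM (log2 ratio 1.38, 0.74 to 2.07); 1 of the 7 members tested was, against 12.4% of 3879 genes. Their ATF4 arm was at 1946 and 4238 CPM. In these cells NSC markers were at 4453 and 7224 CPM and markers of progenitors and neurons at 20169 and 15896 CPM, and the part of this shift in the Herpud1 value was not tested. Mural cells surround vessels. The mural-like cluster was led by Tagln, Dcn, Tpm2, Aspn and Pcolce, with 2 mural markers, Vtn and Kcnj8, among its 10 leading genes. The class is therefore not shown to hold mural cells alone, and whether its make-up differed between libraries was not tested. In its 94 CT and 169 Opa1 cKO cells, 3 of 8 members tested were at least 1.5-fold higher, against 18.1% of 2058 genes. The members summed to 1837 and 2370 CPM (0.37, 0.18 to 0.56). Hspa5 was at 367 and 757 CPM (1.04, 0.63 to 1.47), Herpud1 at 98.0 and 199 CPM (1.02, 0.22 to 1.90) and Xbp1 at 178 and 288 CPM (0.70, 0.09 to 1.35). In the same cells the immediate early genes were at 3575 and 5750 CPM and the ATF4 arm at 2406 and 5948 CPM. NSC markers were at 10867 and 13005 CPM, endothelial markers at 992 and 343 CPM and microglia markers at 202 and 43.2 CPM. The part of these genes in the result was not tested. The endothelial-like cells, 55 CT and 89 Opa1 cKO cells of a cluster led by hemoglobin genes, carried mural markers at 16841 and 14459 CPM beside endothelial markers at 16132 and 15423 CPM, so they are not free of mural RNA. They had Hspa5 at 292 and 500 CPM (0.78, 0.37 to 1.20) and Pdia6 at 150 and 231 CPM (0.62, 0.04 to 1.23), 2 of 8 members tested against 10.0% of 2466 genes, while Herpud1 was at 142 and 161 CPM (0.18, -0.45 to 0.84). Their members summed to 1524 and 2032 CPM (0.41, 0.23 to 0.60) and their ATF4 arm to 2675 and 3952 CPM. NSC markers were at 6647 and 8108 CPM in these cells, and the part of this RNA in the result was not tested.

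In 39 CT and 244 Opa1 cKO ependymal-like cells the members' sum was 1881 and 2075 CPM (0.14, -0.07 to 0.36), and the 1 member of 9 at least 1.5-fold higher, against 20.7% of 3697 genes, was Herpud1 with 2 and 52 UMIs (1.58, -0.34 to 4.67). Herpud1 reached the minimum of 50 UMIs in ependymal-like cells through its Opa1 cKO UMIs. The same held for Herpud1 in progenitor and neuron-like cells (26 CT and 88 Opa1 cKO UMIs) and for Pdia6 in endothelial-like cells (35 and 89). Oligodendrocyte-like cells, 74 and 101 cells, had the smallest log2 ratio of the ATF4 arm among the classes. There the members summed to 1347 and 1414 CPM (0.07, -0.12 to 0.26) and the ATF4 arm to 3039 and 3163 CPM (0.06, -0.07 to 0.18), and 0 of 7 members were 1.5-fold higher, against 10.9% of 2416 genes. Herpud1 in these cells was at 48.6 and 59.7 CPM. Only 11 CT cells fell among activated NSC-like cells, against 409 Opa1 cKO cells, so that the CT members rest on 50 UMIs in all. A second clustering of the lineage cells alone put 47 CT and 294 Opa1 cKO cells in that class, so its size depends on the clustering. In the Opa1 cKO cells of that class Herpud1 was at 192 CPM and Calr at 151 CPM, beside 217 CPM and 155 CPM in Opa1 cKO NSC/astrocyte-like cells.

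**Figure D5:**
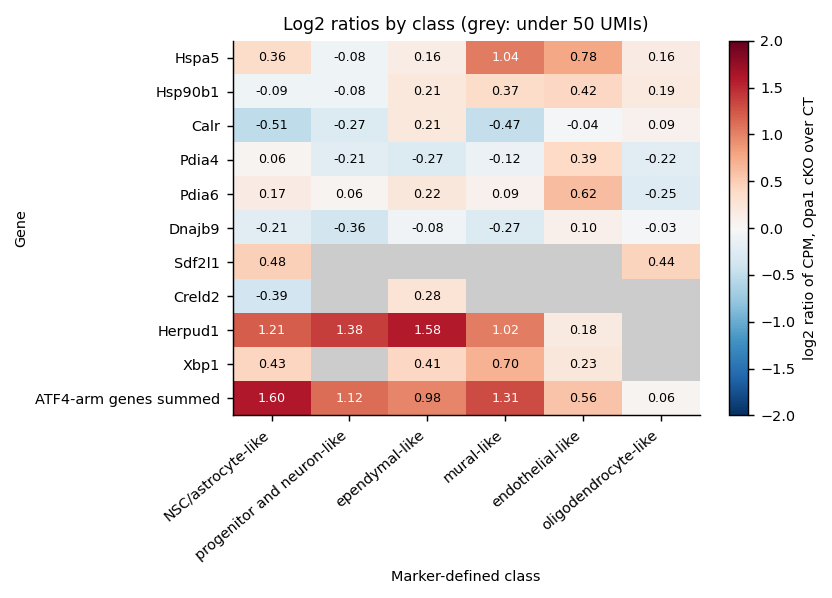
Log2 ratio of CPM, Opa1 cKO over CT, for each member and the summed ATF4 arm (rows) in 6 classes (columns); red is higher in Opa1 cKO cells, blue lower, and grey marks genes with under 50 UMIs in both libraries together. Herpud1 is above 1 in 4 classes, of which the ependymal-like value rests on 2 CT and 52 Opa1 cKO UMIs (interval -0.34 to 4.67). Herpud1 is at 0.18 in endothelial-like cells, where Hspa5 is at 0.78.

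Over the 14 combinations of class and library, the genes whose log2 level followed the members' sum most closely among 5328 genes were Crip1 (Pearson's r = 0.85), S100a11 (0.85), Acta2 (0.84), Pofut2 (0.84) and Cebpb (0.83). The points share 2 libraries and differ in depth, and the members' sum was highest in mural-like and ependymal-like cells, so these values describe which classes carry the genes.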

How the data were processed

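Per the labels and the study's methods, the authors counted UMIs per gene and barcode of 2 libraries (single cell 3′ v2 assay) against mm10; the deposited values are raw counts. The labels name Cell Ranger 2.1.1 and the matrix headers software version 3.1.0, and the counting annotation is not given in the sources used here. Counts of identifiers with 1 symbol were summed. The filters kept cells of over 600 but under 7500 genes that had a mitochondrial share below 20% and 1 or more YFP UMIs. Counts were clustered with SCTransform (sctransform 0.4.2) in Seurat 5.3.0 and R 4.3.3 on 8 dimensions at resolution 0.2. A cluster took the name of the class with most markers among its 50 leading genes, with at least 3 markers and 30% of them at a log2 fold over 1 (10 CPM added); this form of the rule, and the joining of NSC and astrocyte markers, were set after the clusters had been seen. No doublets were called.

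UMIs were summed per group and given as CPM with exact 95% Poisson intervals; log2 ratios have exact binomial intervals. Both cover counting error only, since each genotype is 1 library of pooled mice. Genes with at least 50 UMIs in both groups together were tested against 1.5-fold. A gene at 0 was set at 3 UMIs. The intervals were checked on simulated Poisson counts. These hold no variation between cells beyond counting error, so the check does not cover such variation. Named genes are all members, Opa1 and Atf4, the 3 highest and 2 lowest of each other list in the Opa1 cKO cells under 1% over CT (mitochondrial mRNAs, which set those groups, apart), and the 5 genes most like the members' sum over classes, with at least 500 UMIs and 10 CPM added; Herpud2 was added after its value was seen. The members, lists and tests were chosen with earlier results of these data known. Alternatives concerned filters, denominator, centring, weighting, depth, deepest 5% of cells, clustering, cutoffs and ordering. Python 3.11.15, numpy 2.4.6, scipy 1.17.1, pandas 2.3.3 and matplotlib 3.10.9 were used.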

Additional observations from a re-analysis of the deposited data

Results flagged for a closer look

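Hsp90b1 differed in direction between comparisons of Opa1 cKO over CT whose CT cells overlap. The CT cells at 3% or more, with Hsp90b1 at 199 CPM, are part of all CT cells of the class, at 197 CPM. Hsp90b1 was at 246 CPM in the Opa1 cKO cells at 3% or more and at 155 CPM in those under 1%. Among cells with a mitochondrial share of 3% or more its log2 ratio was 0.31 (0.15 to 0.46), and in the Opa1 cKO cells under 1% over all CT cells it was -0.35 (-0.49 to -0.20), a gap of 0.65. Within Opa1 cKO, the log2 ratio of Hsp90b1 in the cells under 1% over those at 3% or more was -0.66 (-0.81 to -0.51). The gap between the 2 ratios to CT was not tested, since each genotype is 1 library, and both ratios draw on CT cells.

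Herpud1 was also higher in cells outside the comparisons, the NSC/astrocyte-like cells in which no YFP UMI was found, 1824 in CT and 1490 in Opa1 cKO. There its level was 109 CPM in CT cells and 198 CPM in Opa1 cKO cells, a log2 ratio of 0.85 (0.68 to 1.03). The members' sum in these cells was 1498 and 1682 CPM and the ATF4 arm 3099 and 7163 CPM. Since both libraries came from sorted YFP+ cells, these cells had passed that sort too. Other members did not all keep the value of the kept cells. Calr had a log2 ratio of -0.07 (-0.21 to 0.08) here and -0.51 (-0.63 to -0.38) in the kept cells of the class. Sdf2l1 was at -0.02 (-0.45 to 0.42) and 0.48 (0.07 to 0.92). Xbp1 was at 0.62 (0.37 to 0.86) and 0.43 (0.21 to 0.64), and Hspa5 at 0.27 and 0.36.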

How the results depend on the processing

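No paired analysis was possible because each genotype has 1 library. Leaving mitochondrial mRNAs out of the denominator gave log2 ratios of the members' sum of 0.053 in NSC/astrocyte-like cells, 0.025 in Opa1 cKO cells under 1% over CT and -0.079 between the low and high mitochondrial groups of Opa1 cKO. Centring on the median of all genes gave 0.0051 and -0.25 for the last 2 of these and 0.22 for cells at 3% or more, with 2 genes of translocation and export at least 1.5-fold lower. Without the YFP requirement the sum in endothelial-like cells was at 0.21 and 2 members were at least 1.5-fold higher in the cells under 1%, as they were with a mean of CPM per cell. Thinning to 1500 UMIs, which left out cells with fewer UMIs, gave 2 members at least 1.5-fold higher in the whole class. It gave 1 member at least 1.5-fold lower in the cells under 1%. Ordering by 6 ATF4-arm genes gave sums of 0.24 over CT and 0.20 over the lowest group, and thinning before ordering left 1 member higher. With 20 UMIs as the minimum, 2 heat shock genes were at least 1.5-fold higher. Of the summed values and counts under the alternatives, 187 stayed within the interval or 1.5 times the count of the main setting and these 16 did not; of single members' values 359 stayed and 11 did not. Changes of sign under some alternatives occurred for the sum between the low and high mitochondrial groups, the sum in progenitor and neuron-like cells, and Hspa5, Pdia4, Pdia6, Sdf2l1 and Creld2 in 1 or more comparisons, each time for a ratio whose interval held 0 in the main setting. Without the YFP requirement or without the members and stress genes, no activated NSC-like cluster formed, so no value is given.

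Counting intervals leave out differences between cells, between mice and between libraries. Sdf2l1 and Creld2 have the widest intervals of the members in NSC/astrocyte-like cells. Classes with under 100 CT cells bound members only loosely, as the interval of Herpud1 in ependymal-like cells shows.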
